A study of Mus musculus with 42 samples.

Results

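The genes described here are 10 genes of inflammatory signalling in mouse liver: the chemokines Cxcl1, Cxcl9, Cxcl10, Cxcl12, Ccl2, Ccl6 and Ccl9, the adhesion gene Icam1, and the NF-kappaB inhibitors Nfkbia and Tnfaip3. They were taken by symbol from the 55573 gene IDs of the acute and chronic count tables, and all 10 were found, each under 1 ID. The study measured liver mRNA of male C57B6/J mice in 42 libraries, each from a separate mouse according to the labels. After acute treatment there were 4 groups of 6 mice: vehicle, corticosterone (CORT, a natural glucocorticoid), enzalutamide (ENZA, a drug that blocks the androgen receptor) and both drugs together (CORT+ENZA). After chronic treatment there were 3 groups of 6, given vehicle, CORT or CORT+ENZA, and the 42 libraries held no group given chronic ENZA by itself. The sources used here do not give doses, routes or lengths of treatment. RNA was extracted with a Qiagen kit in the acute arm and a Macherey-Nagel NucleoSpin kit in the chronic arm, so the kit and the duration cannot be told apart. Levels below are in CPM, counts scaled to library size, and differences are log2 fold changes ± SE.

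Chemokines are small secreted proteins that bind receptors on leukocytes and draw them along a gradient into tissue. Many are transcribed when the factor NF-kappaB enters the nucleus after cytokine or microbial signals, and interferon-gamma induces a further set. NF-kappaB also switches on its own inhibitors, which end the response, and the glucocorticoid receptor is known for repressing many of its targets. In liver, hepatocytes, Kupffer cells (the resident macrophages), endothelial cells and stellate cells can all make chemokines.

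The sequences upstream of the RefSeq transcription starts of 5 members are shown, because these genes were called with chronic CORT+ENZA against CORT (Cxcl9, Cxcl10, Ccl9, Ccl6) or because the gene encodes the best known feedback inhibitor (Nfkbia). Each is the 250 bases before the start, 5′ to 3′ on the strand of the gene, in build GRCm38.p6. All 5 lie on the minus strand, at chr5:92328080-92328329 (Cxcl9), chr5:92348890-92349139 (Cxcl10), chr11:83593088-83593337 (Ccl6), chr11:83578637-83578886 (Ccl9) and chr12:55492648-55492897 (Nfkbia). Capitals mark matches to the NF-kappaB consensus, or in Cxcl10 also to a paired interferon regulatory factor (IRF) element.
Cxcl9: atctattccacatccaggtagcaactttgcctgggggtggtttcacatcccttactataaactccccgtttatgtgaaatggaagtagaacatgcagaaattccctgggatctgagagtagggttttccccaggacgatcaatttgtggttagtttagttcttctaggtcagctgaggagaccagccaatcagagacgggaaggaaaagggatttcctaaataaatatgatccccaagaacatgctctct
Cxcl10: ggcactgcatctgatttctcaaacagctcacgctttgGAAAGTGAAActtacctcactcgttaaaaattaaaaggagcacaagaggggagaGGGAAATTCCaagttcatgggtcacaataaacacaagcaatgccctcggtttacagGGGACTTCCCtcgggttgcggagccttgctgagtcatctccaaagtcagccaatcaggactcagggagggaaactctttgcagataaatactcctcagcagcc
Ccl9: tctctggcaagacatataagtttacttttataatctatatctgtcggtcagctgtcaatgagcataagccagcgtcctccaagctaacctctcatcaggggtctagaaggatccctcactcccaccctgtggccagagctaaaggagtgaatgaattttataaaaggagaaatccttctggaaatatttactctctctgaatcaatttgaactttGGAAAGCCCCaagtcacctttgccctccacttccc
Ccl6: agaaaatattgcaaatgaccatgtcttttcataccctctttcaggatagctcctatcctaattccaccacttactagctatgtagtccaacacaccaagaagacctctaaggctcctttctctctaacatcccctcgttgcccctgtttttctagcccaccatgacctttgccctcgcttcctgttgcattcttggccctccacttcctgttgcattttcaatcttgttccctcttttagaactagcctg
Nfkbia: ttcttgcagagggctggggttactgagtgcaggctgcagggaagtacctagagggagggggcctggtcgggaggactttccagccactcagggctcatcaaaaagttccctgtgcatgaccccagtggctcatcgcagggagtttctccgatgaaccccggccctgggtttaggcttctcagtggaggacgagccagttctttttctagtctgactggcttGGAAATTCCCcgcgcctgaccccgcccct

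RefSeq gave an upstream window for 9 of the 10 members (all but Ccl2), with 10 starts in all. On either strand, the NF-kappaB consensus was found at 5 of the 10 starts, those of Cxcl1 (2 overlapping matches), Cxcl10 (2 matches), Ccl9, Nfkbia and Tnfaip3 (2 matches), and in 3.75% of 27025 promoters. With the last base before the start as -1, the matches began at -159 and -103 in Cxcl10, at -35 in Ccl9 and at -29 in Nfkbia. The paired IRF element GAAANNGAAA was found in Cxcl10 alone among the members and in 3.04% of promoters, and the STAT element TTCNNNGAA in Icam1 alone and in 7.18%. The glucocorticoid response element GNACANNNTGTNC was in 0 of the 10 starts and in 0.38% of promoters, and the 6-base half-site AGAACA was in Cxcl9 (2 matches) and at the second start of Tnfaip3, against 16.2% of promoters. A half-site can form part of the full element. These matches describe letters in the window and are not binding sites measured here. Cxcl9 and Cxcl10 lie near each other on chromosome 5 (92321347 to 92328079 and 92346638 to 92348889), and Ccl9 and Ccl6 on chromosome 11 (83572919 to 83578636 and 83587882 to 83593087). Of the upstream windows of Ccl6 and Ccl9, the longest stretch in common was 13 bases.

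Each acute library held 18674151 to 20464521 counts in genes, and each chronic library 15381724 to 19581723. Fkbp5, a glucocorticoid receptor target used as a check of the CORT label, rose by 1.26 ± 0.24 in the acute (edgeR adjusted p = 0.00595) and 2.89 ± 0.40 in the chronic arm (adjusted p = 1.08e-04). All 6 hepatocyte markers (Alb, Apoa1, Ttr, Cps1, Serpina1c, Fgb) were counted in every library, with summed levels of 63550 to 142300 CPM. Their sum was lower with chronic CORT+ENZA (63550 to 83190 CPM) than in the other chronic mice (94330 to 127700 CPM). Singly, 3 of the 6 fell and 0 rose with CORT+ENZA against vehicle and also against CORT, and 1 and 2 of the 6 had a difference above 0. Of all genes, 18.6% and 11.8% were called in these comparisons. 3 mice stood apart in the members: mouse 18 of chronic CORT+ENZA, mouse L29A of acute ENZA and mouse L25A of acute vehicle. In mouse 18 the 10 Kupffer markers summed to 726 CPM, against at most 301 in the rest of its group, the 7 monocyte markers to 135 against at most 59.1, and the 8 T and NK cell markers to 6.30 against at most 2.04. In mouse L29A the same sums were 769, 70.9 and 8.97 CPM, against at most 321, 41.2 and 3.98 in the rest of its group. The 8 neutrophil markers summed to 8.66 CPM in mouse 18 (5.86 or less in its group) and 11.9 in L29A (4.34 or less). The 6 stellate cell markers summed to 613 CPM in mouse 18, against at most 403 in the rest of its group. In L29A they summed to 351 CPM, the lowest of its group. In mouse L25A the 10 Kupffer markers (319 CPM) and the T and NK markers (3.84 CPM) were within its group, and the monocyte sum of 57.0 CPM was the highest of it. Results that rest on these mice are given with and without them.

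Counts of 9 members passed the low-count filter in each arm. Ccl2 did not pass in either (1 to 74 counts per library) and of the fits reported here only the joint fit of all libraries tested it. Its values in other fits are given with the gene. In the chronic arm, 3 of the 9 members fell with CORT against vehicle and 0 rose, where 18.3% of 13099 genes were called. With chronic CORT+ENZA against vehicle 3 rose and 0 fell (18.6% of all genes called), and against CORT alone 4 rose and 0 fell (11.8% called). The median difference of the 9 members was -0.25, 0.28 and 0.54 on the log2 scale in these 3 comparisons, against -0.01, -0.01 and -0.003 over all genes. Chronic mouse numbers fall into sets of 3 consecutive numbers, each of 1 group, and whether a set is a batch is not stated. With these sets as a random block in limma-voom, 0, 1 and 1 members were called, and Ccl9 was the 1 in both CORT+ENZA comparisons (0.68 against vehicle, adjusted p = 0.00221, and 1.05 against CORT, adjusted p = 8.33e-05). Over all genes that fit called 952, 1201 and 479 of 13099, beside 2401, 2434 and 1552 by edgeR. In that fit the CORT differences no longer called were -2.50 for Cxcl9, -2.29 for Cxcl10 and -0.37 for Ccl9. The CORT+ENZA differences from CORT no longer called were 2.31 for Cxcl9, 3.05 for Cxcl10 and 0.83 for Ccl6. Those from vehicle were 0.68 for Ccl6 and 0.73 for Tnfaip3. In the acute arm, 1 of 9 rose with ENZA against vehicle, where 1.31% of 13733 genes were called. By edgeR, 0 of 9 were called with acute CORT against vehicle (1.62% of all genes), CORT+ENZA against vehicle (2.47%), against CORT (0.175%) or against ENZA (1.81%), or in the interaction of CORT and ENZA (0%). At an unadjusted p under 0.05 these last 5 comparisons held 1, 5, 1, 2 and 0 of the 9 members, beside 1934, 2210, 696, 2050 and 501 of the 13733 genes. DESeq2 called 1, 1, 0, 0 and 0 of the 9 members, and limma-voom 0 in each. Over all genes DESeq2 called 432, 584, 59, 461 and 0, and limma-voom 356, 674, 50, 634 and 0. Comparisons within an arm share vehicle or CORT mice, so their counts are not independent.

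**Figure D1:**
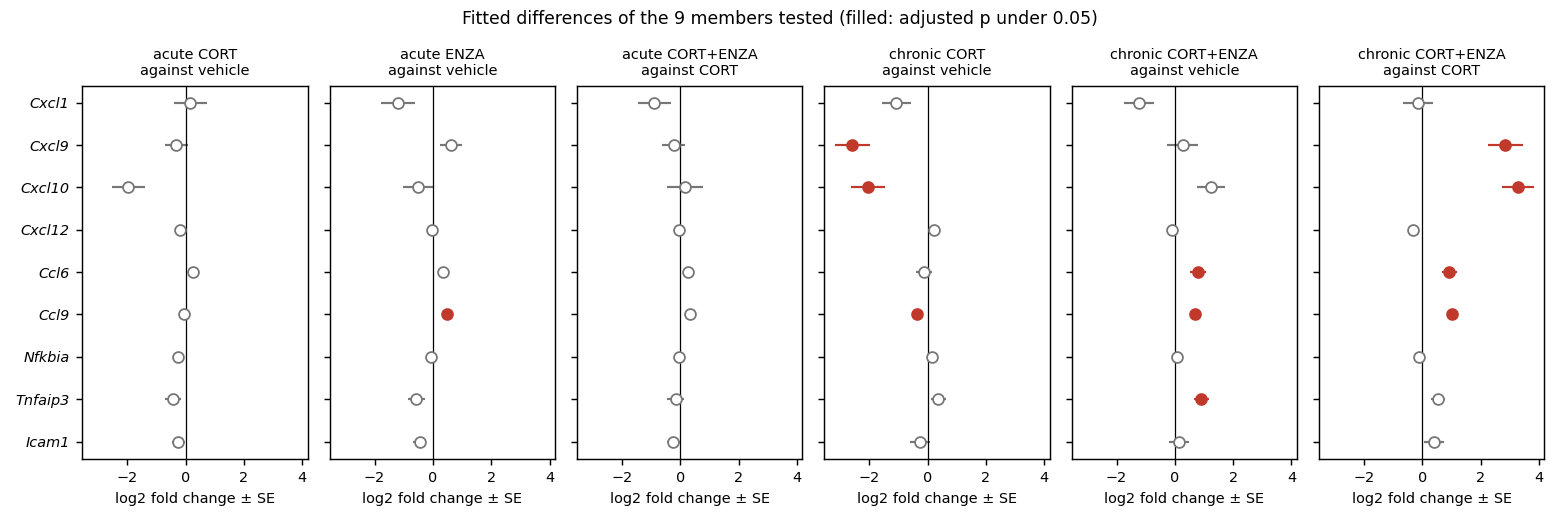
Log2 fold changes (x axis, bars are SE) of the 9 members tested in 6 comparisons, with filled points where the adjusted p was under 0.05. The filled points are 1 in the acute panels (Ccl9 with ENZA, 0.49) and 3, 3 and 4 in the chronic panels. Cxcl9 and Cxcl10 lie farthest from 0 in the panels of chronic CORT against vehicle (-2.58 and -2.05) and of chronic CORT+ENZA against CORT (2.86 and 3.29).

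Cxcl9 and Cxcl10 encode interferon-induced ligands of Cxcr3, which draw T cells and NK cells. In chronic livers, Cxcl9 was at 5.04, 9.80 and 23.6 CPM (lowest, median and highest mouse) with vehicle, at 0.786, 2.08 and 2.28 with CORT, and at 4.80, 6.76 and 48.5 with CORT+ENZA. Every CORT mouse was below every mouse of the other 2 chronic groups, and the vehicle and CORT+ENZA mice overlapped. Cxcl9 fell with CORT to 0.167 of the vehicle level (-2.58 ± 0.61, edgeR quasi-likelihood adjusted p = 0.0073). Its level was 7.24 times higher with CORT+ENZA than with CORT (2.86 ± 0.61, adjusted p = 0.00554), and against vehicle the difference was 0.28 ± 0.53 (adjusted p = 0.769). The highest value belonged to mouse 18. Without mouse 18, the difference against CORT was 1.78 (adjusted p = 0.00221) and against vehicle -0.80 (adjusted p = 0.0774).

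Cxcl10 was likewise lowest with CORT, at lower counts. It was at 1.56, 1.89 and 2.41 CPM with chronic vehicle, at 0.157, 0.343 and 1.14 with CORT, and at 1.43, 2.64 and 14.2 with CORT+ENZA. Again each CORT mouse was below all mice of the other 2 groups. The CORT mice held 3 to 21 counts (mean 8.33), which is a low count. Cxcl10 fell with CORT to 0.242 of vehicle (-2.05 ± 0.57, edgeR adjusted p = 0.0178) and was 9.75 times higher with CORT+ENZA than with CORT (3.29 ± 0.56, adjusted p = 6.65e-04). Against vehicle the CORT+ENZA difference of 1.24 ± 0.48 was not called (adjusted p = 0.0806), though DESeq2 (adjusted p = 0.0462) called it. Without mouse 18 the difference from CORT was 2.48 (adjusted p = 1.42e-04) and that from vehicle 0.44 (adjusted p = 0.354). Exons of Cxcl10 overlap those of Art3 on the opposite strand, which had 8 to 54 counts per library, and since the strand setting of the counting is not given, reads of the overlap are uncertain.

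Markers of immune cells were summed in the same livers. The 8 T and NK cell markers summed to 2.23 to 3.05 CPM with chronic vehicle, 0.342 to 1.10 with CORT and 0.739 to 6.30 with CORT+ENZA. In CORT mice 3 to 7 of the 8 had counts, and Ncr1 was at 0 in 6 of 6. The 10 Kupffer markers, all counted in every chronic mouse, summed to 129 to 417, 112 to 196 and 160 to 726 CPM in the same order of groups. The 7 monocyte markers summed to 28.0 to 78.3, 21.8 to 30.2 and 34.7 to 135 CPM, with 5 to 7 counted in CORT mice and Ly6c2 at 0 in mice 3 and 27. The 6 B cell markers summed to 3.86 to 11.1, 0.210 to 1.70 and 0.933 to 3.67 CPM. Tested singly with chronic CORT against vehicle, 0 Kupffer markers rose and 2 of 10 fell, 1 monocyte marker rose and 2 of 5 tested fell, and all 5 B cell markers tested fell. With CORT+ENZA against CORT, 2 Kupffer, 3 monocyte and 1 B cell marker rose and 0 fell. Against vehicle, 4 of the 5 B cell markers were lower and 1 of the 5 monocyte markers higher with CORT+ENZA, and 0 of the Kupffer markers were called. Of all genes, 18.3%, 11.8% and 18.6% were called in these 3 comparisons. Mouse 18 had the highest Kupffer, monocyte and B cell sums of its group, and the marker lists were not refitted without it. The monocyte marker Ccr2, higher with CORT+ENZA than with CORT, was not called without mouse 18 (1.27, edgeR adjusted p = 0.0549). None of the 8 T and NK cell markers passed the low-count filter of the chronic arm. In bulk liver, fewer cells of a type and less RNA per cell cannot be told apart. The part of these cells in the Cxcl9 and Cxcl10 results was not tested.

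**Figure D2:**
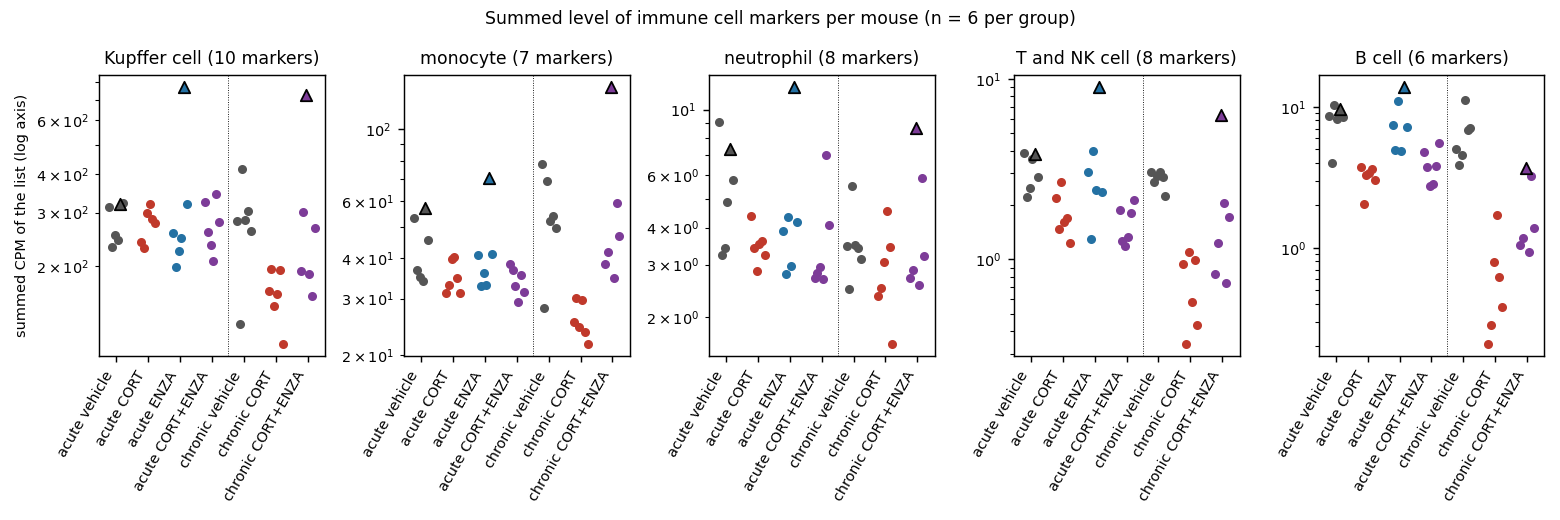
Summed CPM (log axis) of 5 lists of immune cell markers, 1 point per mouse in each of the 7 groups, with triangles for acute vehicle L25A, acute ENZA L29A and chronic CORT+ENZA mouse 18. The triangle of mouse 18 is at 726 CPM in the Kupffer panel and 6.30 CPM in the T and NK panel, and the chronic CORT mice lie at 0.342 to 1.10 CPM in the latter.

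In the acute arm the Cxcr3 ligands were not called. Cxcl9 was at 6.06, 7.65 and 10.9 CPM with vehicle, 4.52, 6.88 and 8.11 with CORT, 4.29, 8.40 and 38.1 with ENZA, and 3.87, 4.83 and 9.92 with CORT+ENZA. The groups overlapped, and the value of 38.1 was that of mouse L29A. The CORT difference of Cxcl9 was -0.32 ± 0.38 (edgeR adjusted p = 0.772). Cxcl10 was at 2.02, 3.35 and 23.2 CPM with acute vehicle, 0.781, 1.58 and 2.84 with CORT, 2.26, 3.47 and 11.8 with ENZA, and 1.11, 1.58 and 3.03 with CORT+ENZA. The vehicle maximum was mouse L25A and the ENZA maximum mouse L29A. Cxcl10 was fitted at 0.258 of vehicle with CORT (SE 0.57 on the log2 scale, edgeR adjusted p = 0.0876, DESeq2 adjusted p = 0.0207) and differed by -1.79 ± 0.57 with CORT+ENZA (0.103, DESeq2 0.0351). Without L25A and L29A the CORT difference of Cxcl10 was -0.94 (adjusted p = 0.160) and the CORT+ENZA difference -0.77 (adjusted p = 0.223).

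Whether these effects differed between the arms was tested as a difference of effects in the joint fit. The arms differ in RNA kit as well as duration, so the fit cannot assign a difference to either. For the CORT effect, 0 of 10 members differed between the arms by edgeR, where 6.17% of 14138 genes were called. DESeq2 called 1 of the 10, beside 1073 of 14129 genes, and limma-voom 2, beside 1683 of 14138. At an unadjusted p under 0.05 there were 4 of the 10, beside 2895 of 14138 genes. Cxcl9 came closest, at -2.23 ± 0.71 (adjusted p = 0.0527), and its adjusted p ranged from 0.00828 to 0.05 in the 7 fits without 1 library in which it was called. Of the mice left out in these 7 fits, all but chronic vehicle mouse 11 were of groups outside this difference, mouse 18 among them. Leaving those out could act only on the spread, scaling and filter shared by all groups. For Cxcl10 the CORT effects differed by -0.06 ± 0.74, and by -1.07 without L25A (adjusted p = 0.429). For ENZA added to CORT, 2 of 10 differed, both higher in the chronic arm, where 1.27% of genes were called. Cxcl9 was one, at 3.03 ± 0.72 (adjusted p = 0.0194), and without mouse 18 it was at 1.99 and no longer called (adjusted p = 0.0632). Cxcl10 was at 3.07 ± 0.88 (adjusted p = 0.0736). Without L25A and L29A it was called at the same 3.07 (adjusted p = 0.00444). Neither mouse is of a group in this difference, so leaving them out could act only on the spread, scaling and filter shared by all groups. Without mouse 18 the value for Cxcl10 was 2.29 (adjusted p = 0.188).

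Ccl9 and Ccl6 are CC chemokines of mice that bind Ccr1 on myeloid cells. Ccl9 was among the more abundant members, at 841 mean counts per library with chronic CORT and 2026 with acute ENZA. In chronic livers it was at 52.0, 57.6 and 68.7 CPM with vehicle, 35.3, 48.1 and 53.4 with CORT, and 83.0, 95.4 and 106.5 with CORT+ENZA. All 6 CORT+ENZA mice were above all mice of the other 2 groups, and the vehicle and CORT ranges met, with 1 CORT mouse (mouse 3, 53.4 CPM) above 2 vehicle mice. Ccl9 fell with CORT (-0.36 ± 0.10, edgeR adjusted p = 0.0149). It rose with CORT+ENZA to 1.60 times the vehicle level (0.68 ± 0.10, adjusted p = 6.82e-05) and to 2.05 times the CORT level (1.04 ± 0.10, adjusted p = 1.32e-06). Without mouse 18 the last 2 differences were 0.64 (adjusted p = 1.47e-04) and 0.99 (adjusted p = 2.01e-06). Mouse 18 itself had 106.5 CPM, the highest of its group, next to 99.4 CPM in mouse 6.

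In the acute arm Ccl9 was at 67.0, 71.4 and 80.9 CPM with vehicle, 57.2, 70.7 and 83.3 with CORT, 73.6, 98.8 and 141.6 with ENZA, and 72.7, 83.1 and 116.2 with CORT+ENZA. In the ENZA group 5 of 6 mice were above every vehicle mouse, and mouse L23A (73.6 CPM) was within the vehicle range. Ccl9 rose with ENZA by 0.49 ± 0.12 (edgeR adjusted p = 0.043). This call was lost without any 1 of 11 libraries, with a difference of 0.38 to 0.51 and an adjusted p of 0.0514 to 0.102, and the lowest difference was without ENZA mouse L17A. The differences of Ccl9 with CORT+ENZA were 0.27 ± 0.12 against vehicle (adjusted p = 0.265) and 0.32 ± 0.12 against CORT (adjusted p = 0.726). The effect of ENZA added to CORT was larger in the chronic arm by 0.68 ± 0.16 (adjusted p = 0.0200), which the fit without mouse 18 also called. In chronic mice the summed level of the hepatocyte markers was lower with CORT+ENZA, as given above, and their part in the Ccl9 result was not tested.

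Ccl6 was at 2.76, 4.66 and 6.12 CPM with chronic vehicle, 2.38, 4.40 and 5.14 with CORT, and 4.64, 6.44 and 16.8 with CORT+ENZA. The CORT+ENZA range began within those of the other groups and ended at mouse 18, with 8.23 CPM as the next value. Ccl6 rose with CORT+ENZA by 0.80 ± 0.27 against vehicle (edgeR adjusted p = 0.0455) and 0.93 ± 0.27 against CORT (adjusted p = 0.0306). The call against vehicle was lost without any 1 of 13 libraries (adjusted p 0.0513 to 0.117) and the call against CORT without any 1 of 6 (0.0520 to 0.0656). The values without mouse 18 were 0.44 and 0.57. In acute livers Ccl6 was at 4.17, 5.60 and 7.14 CPM with vehicle, 4.86, 6.99 and 7.95 with CORT, 4.80, 6.68 and 12.3 with ENZA, and 6.89, 8.20 and 9.44 with CORT+ENZA. The acute CORT+ENZA difference from vehicle was 0.54 ± 0.18 (adjusted p = 0.107), and 0.62 without L25A and L29A (adjusted p = 0.0161). Over all mice, the 2 highest values of Ccl6 and of the Kupffer sum were in mice 18 and L29A, and the part of Kupffer cells in the Ccl6 result was not tested.

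**Figure D3:**
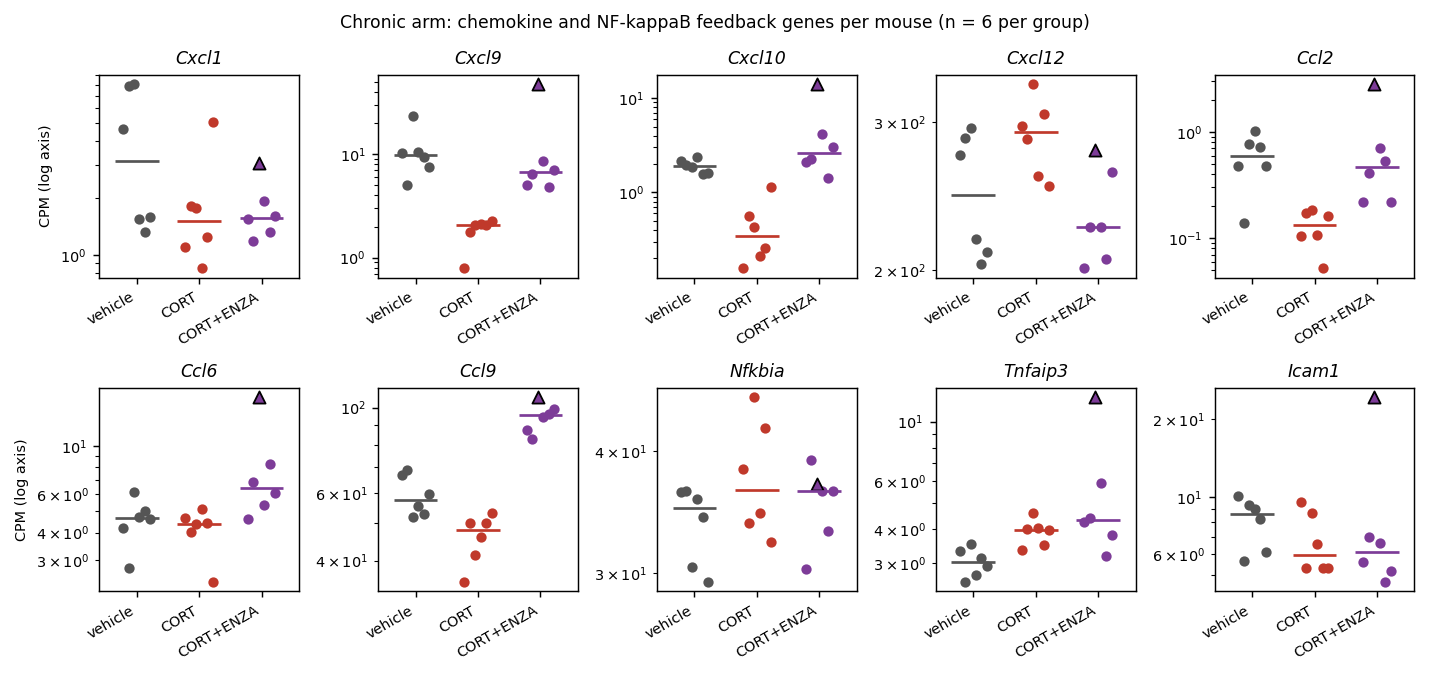
CPM (log axis) of the 10 members in the chronic arm, 1 point per mouse, with a line at the median of each group of 6 and a triangle for mouse 18. Ccl9 with CORT+ENZA lies at 83.0 to 106.5 CPM, apart from both other groups, and mouse 18 is the top point of Cxcl9 (48.5), Cxcl10 (14.2), Ccl6 (16.8), Tnfaip3 (12.3) and Icam1 (24.3).

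Cxcl12 encodes the ligand of Cxcr4, a homeostatic chemokine made by stromal and endothelial cells. It was at 203.5, 246 and 295 CPM with chronic vehicle, 252, 292 and 333 with CORT, and 201, 225 and 278 with CORT+ENZA. The 3 groups overlapped, and vehicle mice 10, 11 and 12 (274 to 295 CPM) lay above vehicle mice 13, 14 and 15 (203.5 to 218 CPM). With CORT+ENZA the difference from CORT was -0.31 ± 0.11 (edgeR adjusted p = 0.0744), and -0.38 without mouse 18 (adjusted p = 0.0325). In the acute groups Cxcl12 medians were 344 CPM with vehicle, 316 with CORT, 352.5 with ENZA and 301 with CORT+ENZA, all within a range of 234 to 444 CPM. No acute difference of Cxcl12 was called, and the largest was -0.24 ± 0.13 with CORT+ENZA against vehicle (adjusted p = 0.355).

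Cxcl1 encodes a ligand of Cxcr2 that draws neutrophils. It was at 1.32, 3.13 and 8.09 CPM with chronic vehicle, 0.847, 1.51 and 5.04 with CORT, and 1.18, 1.57 and 3.07 with CORT+ENZA. The vehicle mice fell apart by number, with mice 10, 11 and 12 at 4.67 to 8.09 CPM and mice 13, 14 and 15 at 1.32 to 1.60 CPM, the latter within the treated ranges. The differences from vehicle were -1.08 ± 0.50 with CORT (edgeR adjusted p = 0.144) and -1.23 ± 0.50 with CORT+ENZA (adjusted p = 0.0977). Without CORT mouse 3, the highest of its group, the first was -1.62 and called (adjusted p = 0.0250). In acute livers Cxcl1 was at 2.47, 10.5 and 24.7 CPM with vehicle, 2.86, 7.34 and 44.4 with CORT, 3.03, 4.77 and 7.01 with ENZA, and 3.96, 6.11 and 10.3 with CORT+ENZA. The value of 44.4 was mouse L2A of the CORT group, whose next mouse had 8.27 CPM. The acute differences of Cxcl1 from vehicle lay between -1.20 (ENZA) and 0.17 (CORT), with none called. Without L2A the CORT difference of Cxcl1 was -0.85 (adjusted p = 0.401).

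Ccl2 encodes the ligand of Ccr2 that draws monocytes, and its counts were low. Its means were 17.2, 5.17, 12.0 and 5.00 counts in the acute vehicle, CORT, ENZA and CORT+ENZA groups, and 10.2, 2.33 and 15.0 in the chronic vehicle, CORT and CORT+ENZA groups. In chronic CORT mice it had 1 to 3 counts (0.0520 to 0.183 CPM), against 0.138 to 1.03 CPM with vehicle and 0.220 to 2.85 with CORT+ENZA. All 6 CORT mice were below all 6 CORT+ENZA mice, while 1 vehicle mouse (mouse 11, 0.138 CPM) was within the CORT range. The highest levels of Ccl2 were again in mouse L25A (3.60 CPM), mouse 18 (2.85 CPM) and mouse L29A (1.53 CPM). In the joint fit neither the CORT effect (-0.54 ± 1.04, edgeR adjusted p = 0.820) nor the effect of ENZA added to CORT (2.60 ± 1.11, adjusted p = 0.277) differed past the threshold between the arms. Without L25A the first value was -2.07 (adjusted p = 0.173), and without mouse 18 the second was 1.65 (adjusted p = 0.575). With no filter on low counts, Ccl2 was also tested within the chronic arm, where it fell with CORT (-2.16 ± 0.63, adjusted p = 0.0343) and was higher with CORT+ENZA than with CORT (2.61 ± 0.61, adjusted p = 0.0124). Without mice 11 and 18 it passed the filter, at -2.38 (adjusted p = 2.60e-04) and 1.63 (adjusted p = 0.0146). It also passed in all 18 fits without 1 chronic library, in which the CORT difference was called in 12 (adjusted p 0.00180 to 0.0731 over the 18) and the CORT+ENZA difference from CORT in 18 (0.00885 to 0.0351). With a mouse left out, the filter needs fewer libraries, since it follows the size of the smallest group. Ccl2 then passed only through vehicle and CORT+ENZA mice, where it was higher, so these calls cannot serve as support for a difference from CORT. Leaving out mouse 11 also takes away the 1 vehicle mouse within the CORT range. The fit with number sets as a random block did not test Ccl2. The 18 fits share most of their libraries, so their calls are not independent. CORT+ENZA against vehicle was called in none of these fits of Ccl2, and with no filter its acute differences were not called.

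Icam1 encodes an endothelial and leukocyte surface protein that binds the integrin LFA-1 and holds leukocytes at vessel walls. It was at 5.66, 8.56 and 10.1 CPM with chronic vehicle, 5.30, 5.94 and 9.54 with CORT, and 4.70, 6.11 and 24.3 with CORT+ENZA. The groups overlapped, and without mouse 18 the highest CORT+ENZA mouse had 7.02 CPM. No chronic difference was called for Icam1, at -0.25 ± 0.35 with CORT (edgeR adjusted p = 0.669) and 0.15 ± 0.35 with CORT+ENZA against vehicle (adjusted p = 0.816). The second value turned to -0.47 without mouse 18 (adjusted p = 0.0832) and to -0.55 without mice 11 and 18 (adjusted p = 0.0352). In acute livers Icam1 was at 9.02, 13.8 and 26.0 CPM with vehicle, 11.3, 13.0 and 15.2 with CORT, 7.85, 9.60 and 20.9 with ENZA, and 8.92, 10.3 and 16.0 with CORT+ENZA. The acute differences from vehicle were -0.24 ± 0.22, -0.45 ± 0.22 and -0.48 ± 0.22 in that order of treatments (adjusted p 0.664, 0.340 and 0.273). The antisense gene Gm47079, which overlaps Icam1, had at most 4 counts per library.

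Nfkbia encodes IkappaB-alpha, which holds NF-kappaB in the cytoplasm and is itself made on NF-kappaB activation. Its level varied least, at 27.3 to 49.2 CPM over all 42 mice. It was at 29.4, 34.9 and 36.4 CPM with chronic vehicle, 32.3, 36.5 and 45.4 with CORT, and 30.3, 36.4 and 39.2 with CORT+ENZA. In acute mice Nfkbia was at 30.5, 39.1 and 49.2 CPM with vehicle, 28.4, 30.9 and 41.97 with CORT, 34.5, 37.9 and 42.3 with ENZA, and 27.3, 32.5 and 41.1 with CORT+ENZA. The groups overlapped in both arms. The CORT difference of Nfkbia was 0.16 ± 0.09 in the chronic arm (edgeR adjusted p = 0.223) and -0.25 ± 0.12 in the acute arm (adjusted p = 0.362). The difference between these effects, 0.44 ± 0.16, was not called (adjusted p = 0.0887), but was called without acute vehicle mouse L7A or acute CORT mouse L32A (0.51 and 0.52, adjusted p = 0.0427 and 0.0432).

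Tnfaip3 encodes A20, a ubiquitin-editing enzyme that shuts off signalling to NF-kappaB. It was at 2.55, 3.02 and 3.51 CPM with chronic vehicle, 3.35, 3.97 and 4.58 with CORT, and 3.17, 4.33 and 12.3 with CORT+ENZA. The vehicle mice were lowest, their 2 highest values (3.32 and 3.51 CPM) met the ranges of the treated mice, and the next CORT+ENZA mouse below mouse 18 had 5.95 CPM. Tnfaip3 rose with CORT+ENZA against vehicle by 0.90 ± 0.25 (edgeR adjusted p = 0.0167), and by 0.51 without mouse 18 (adjusted p = 0.0207). The CORT difference was 0.37 ± 0.26 (adjusted p = 0.345). In acute livers Tnfaip3 was at 1.87, 2.41 and 5.93 CPM with vehicle, 1.10, 2.17 and 3.00 with CORT, 1.32, 1.70 and 3.65 with ENZA, and 1.09, 2.04 and 2.51 with CORT+ENZA, with the vehicle and ENZA maxima in L25A and L29A. The acute differences of Tnfaip3 from vehicle were between -0.58 and -0.42, with none called. Without L25A they were -0.09 with CORT, -0.23 with ENZA and -0.24 with CORT+ENZA.

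**Figure D4:**
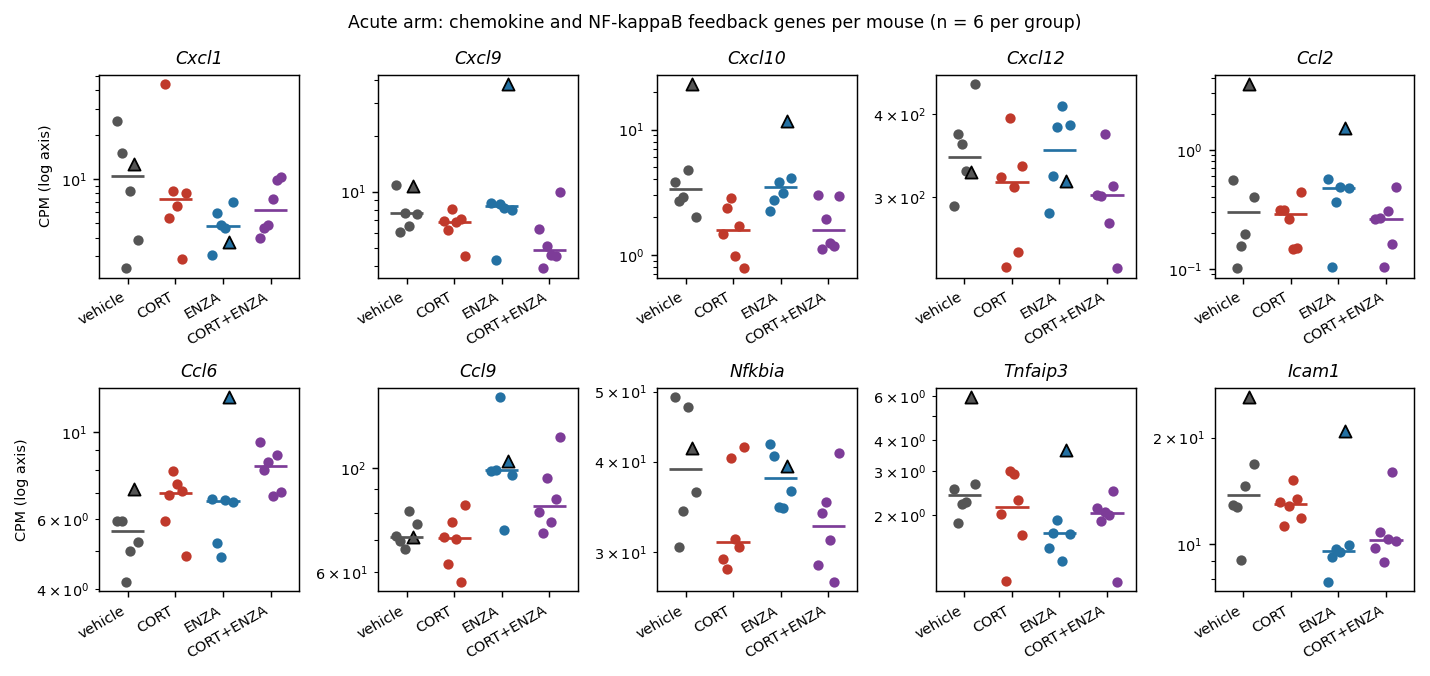
CPM (log axis) of the 10 members in the acute arm, 1 point per mouse, with a line at the median of each group of 6 and triangles for vehicle L25A and ENZA L29A. L25A tops the vehicle group in Cxcl10 (23.2), Ccl2 (3.60), Tnfaip3 (5.93) and Icam1 (26.0), and 5 of 6 ENZA mice lie above the vehicle mice in Ccl9.

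Per kilobase of annotated exon, the mean chronic vehicle level was 30.3 CPM for Cxcl12, 21.0 for Nfkbia and 19.4 for Ccl9. It was 3.67 for Cxcl9, 2.55 for Ccl6, 2.23 for Cxcl1 and 1.85 for Icam1. The lowest were Cxcl10 at 0.851, Ccl2 at 0.529 and Tnfaip3 at 0.418 CPM per kilobase. With chronic CORT+ENZA, Ccl9 stood at 31.04 CPM per kilobase, beside 28.5 for Cxcl12 and 21.98 for Nfkbia.

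The gene whose log2 level followed a member most closely was found for each of the 9 members tested in both arms, as a description. The mean of each group was subtracted first, so r over the 42 libraries describes variation between mice within groups. Differences between treatments, arms and kits are not part of it, and these links rest in part on the 3 mice that stood apart. Cxcl9 was most like Cyth4 and Cd74 (Pearson r 0.876 for each, and 0.730 and 0.805 without mice 18 and L29A). Cxcl10 was most like Relb (r 0.711, and 0.543 without L25A and mouse 18) and had Cxcl9 at rank 3 (r 0.684). Ccl6 was most like Plekho2 (r 0.883) and Icam1 most like Arpc1b (r 0.829). Tnfaip3 was most like Icam1 (r 0.758, and 0.609 without mouse 18 and L25A). Ccl9 had weaker partners that were not members, Atp6v1g1 (r 0.687), Sult1c2 (r 0.664) and Anxa4 (r 0.658). Cxcl1 was most like Junb (r 0.657), Cxcl12 most like Dlc1 (r 0.715) and Nfkbia most like Hmg20b (r 0.623).

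Of 70 other chemokine, receptor, NF-kappaB, cytokine and adhesion genes, 51 were tested in the chronic arm and 54 in the acute arm. With chronic CORT against vehicle, 1 rose and 11 fell (23.5% of those tested, beside 18.3% of all genes). Among those that fell were Ackr1, a decoy chemokine receptor (-1.86 ± 0.41, edgeR adjusted p = 0.00402), the cytokine gene Il1b (-1.56 ± 0.39, adjusted p = 0.00839) and Tnfrsf1a, a TNF receptor (-0.28 ± 0.07, adjusted p = 0.00875). Il1r1, the interleukin 1 receptor, rose by 1.07 ± 0.29. Without mouse 18 of another group the same comparison held 1 higher and 20 lower. Calls over all genes rose too, to 3394 of 13181 without mice 11 and 18, from 2401 of 13099.

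With chronic CORT+ENZA against CORT, 5 of the 51 rose and 0 fell (9.8%, beside 11.8% of all genes). 4 of them were Ccr2 (the receptor of Ccl2, 2.14), Tlr2 (a receptor for bacterial lipoproteins, 1.28), Ccl5 (a chemokine that draws T cells, 1.84) and Itgb2 (a chain of the partner of Icam1, 1.36), and none of these 4 was called without mouse 18 (adjusted p 0.0549 to 0.0672), when 1 of the 51 was higher. Ccr2 is also in the monocyte list. Against vehicle, 3 rose and 3 fell (11.8%, beside 18.6% of all genes), among them Ikbkg, a subunit of the IkappaB kinase, at 0.45 ± 0.09 and Ackr1 at -1.56 ± 0.40. Without mouse 18 that comparison held 4 higher and 7 lower. Over all genes, 3382 of 13181 were called against vehicle and 1721 against CORT without mice 11 and 18. With all mice these were 2434 and 1552 of 13099.

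In the acute arm Il1r1 rose with CORT (1.14 ± 0.22, edgeR adjusted p = 0.00622) together with Myd88, an adaptor of its receptor (0.30 ± 0.08), and the NF-kappaB subunit gene Relb fell (-1.27 ± 0.30, adjusted p = 0.0256). These were 3 of the 54 tested (5.56%, beside 1.62% of all genes). Relb was at 1.67 to 6.61 CPM with acute vehicle (median 2.79) and at 0.991 to 1.68 with CORT, and was not refitted without L25A. Il1r1 alone was called with CORT+ENZA against vehicle (1.01 ± 0.22, where 2.47% of all genes were called) and against ENZA (1.21 ± 0.22, 1.81%), and 0 of 54 with ENZA against vehicle, CORT+ENZA against CORT or in the interaction. Of 55 tested in the joint fit, the CORT effects of Ackr2, Il1b and Traf1 were lower in the chronic arm, by -1.55, -1.80 and -2.43 (6.17% of all genes were called). The effects of ENZA added to CORT on Traf1 and Ccr2 were higher there, by 3.06 and 2.38 (1.27%). In chronic CORT mice the levels were very low, at 0 to 0.16 CPM for Traf1 and 0.157 to 0.456 CPM for Ccr2. These joint effects were not refitted without mouse 18.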

How the data were processed

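The authors deposited raw, unnormalized read counts per gene for each mouse, in 1 table for each arm. FastQC, MultiQC, STAR 2.7.3a and HTSeq 0.12.4 were used with build mm10, per the submitters' processing notes. The sources used here give neither the annotation release nor the strand setting. Per the labels, the libraries were stranded mRNA libraries read as paired ends on a DNBseq instrument.

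Gene IDs were paired with symbols for 55394 of 55573 IDs, and coordinates came from GENCODE M21 on the same build. Counts were fitted with edgeR 4.0.16 in R 4.3.3 (filterByExpr with minimum count 10 and minimum total 15, TMM scaling, robust quasi-likelihood test, group means, no covariate) over all libraries of an arm, and over 42 libraries for differences between arms. Benjamini-Hochberg adjustment ran over all genes tested, with calls at an adjusted p under 0.05. The fit was checked on counts drawn with known changes. CPM are counts relative to the filtered library size scaled by TMM, given as lowest, median and highest mouse. A mean count under 10 was taken as low. Counts of any 2 mice of a group differed well beyond sampling noise (lowest chi-square per degree of freedom 10.6), so no library was counted as a repeat. Of 50-base stretches, 2.0% in Ccl9, 0.49% in Cxcl9 and 0% in the other members were shared with another gene. Reads aligned to several places, which stay out of the counts, made up 9.34 to 12.8% (acute) and 18.6 to 22.7% (chronic).

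Named genes were the 10 members, up to 4 called genes of the pathway list with the smallest p in each comparison, and up to 3 genes most like each member by Pearson r of log2 CPM (prior count 2). For r, the mean of each group was first subtracted from the log2 CPM. Genes named beyond these were chosen after their values were seen, and 1 gene of the list is not reported here. The members and lists were chosen with earlier results of these data known. Alternatives were DESeq2 1.42.0, limma-voom (limma 3.58.1) with quality weights, RLE size factors, no and a stricter filter (CPM 1 in 6 libraries), only the groups compared, sets of mouse numbers, each library left out, and mice that stood apart left out. Leaving out L25A and L29A together, and mouse 18 for the pathway list, were chosen after seeing the data.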

Additional observations from a re-analysis of the deposited data

Results flagged for a closer look

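In each of 7 groups, the highest or lowest of the 6 mice was compared with the range of its group for each of the 10 members. Of these 70 groups, 20 held a mouse that lay far from the other 5. The limit used gives about 1 in 20 by chance for normally distributed values. CPM were not put on a log scale and the same mice recur across members, so that rate need not hold here.

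6 of the 20 were mouse 18 of chronic CORT+ENZA, which was high in Cxcl9 (48.5 CPM), Cxcl10 (14.2), Ccl2 (2.85), Ccl6 (16.8), Tnfaip3 (12.3) and Icam1 (24.3). 6 were mouse L29A of acute ENZA, high in Cxcl9 (38.1 CPM), Cxcl10 (11.8), Ccl2 (1.53), Ccl6 (12.3), Tnfaip3 (3.65) and Icam1 (20.9). 3 were mouse L25A of acute vehicle, high in Cxcl10 (23.2 CPM), Ccl2 (3.60) and Tnfaip3 (5.93). The remaining 5 were single members: Cxcl1 in acute CORT mouse L2A (44.4 CPM), Cxcl1 in chronic CORT mouse 3 (5.04 CPM), Cxcl9 in chronic CORT mouse 1, which was low (0.786 CPM), Cxcl9 in chronic vehicle mouse 12 (23.6 CPM) and Icam1 in acute CORT+ENZA mouse L30A (16.0 CPM). Ccl9, Cxcl12 and Nfkbia had no such mouse in any of the 7 groups.

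The effect of ENZA added to CORT differed between the arms for Cxcl9 (3.03 on the log2 scale, edgeR adjusted p = 0.0194, and 1.99 with adjusted p = 0.0632 without mouse 18) and for Ccl9 (0.68, adjusted p = 0.0200). In each chronic CORT+ENZA mouse both genes were above every chronic CORT mouse, whereas in the acute arm the groups overlapped.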

How the results depend on the processing

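Of 3491 values of single members under the alternatives, 3406 kept their direction or stayed uncalled, among them 95 changes of sign with no call in either fit. Of the rest, 49 calls were lost and 34 were gained. The other 2, Cxcl9 and Icam1 with chronic CORT+ENZA against vehicle, were uncalled in the reported fit, at 0.28 and 0.15. Without mice 11 and 18 they changed sign and were called, at -0.94 and -0.55. Without mouse 18 alone they were -0.80 and -0.47 and not called. The cause was not tested. The number of members called moved by over 1.5 times under the following alternatives, and by no more than that under the others run, among them chronic CORT+ENZA against vehicle at up to 4 and against CORT at up to 6. DESeq2 gave 1 for acute CORT, 1 for acute CORT+ENZA against vehicle and 1 for the CORT effect between arms, and limma-voom with quality weights gave 2 for the last. For the CORT effect between arms it was also 1 with the stricter filter, with only the groups compared, without L25A and L29A, and without mice 11 and 18. Acute ENZA gave 0 with only the groups compared and 0 without L25A and L29A, which gave 1 for acute CORT+ENZA against vehicle. With number sets as a random block (within-set correlation 0.22) the chronic comparisons gave 0, 1 and 1, and all calls but those of Ccl9 with CORT+ENZA were lost. ENZA added to CORT between arms gave 1 without mice 11 and 18. Leaving out 1 library gave 0 to 1 for acute ENZA, 0 to 1 for acute CORT+ENZA against vehicle, 3 to 5 for chronic CORT, 0 to 1 for the CORT effect and 1 to 3 for added ENZA between arms. Over all genes, calls ranged from 96 to 432 for acute CORT (222), 59 to 388 for acute ENZA (180), 203 to 674 for acute CORT+ENZA against vehicle (339), 14 to 59 against CORT (24), 118 to 634 against ENZA (248), 952 to 3394 for chronic CORT (2401), 1201 to 3856 for chronic CORT+ENZA against vehicle (2434), 479 to 2221 against CORT (1552), 509 to 1683 for the CORT effect (873) and 129 to 460 for added ENZA between arms (179), with the reported count in parentheses. Mouse numbers do not repeat between groups, but acute numbers form sets of 4 with 1 mouse of each group. With these sets as a term, 286, 191, 427, 23, 271 and 0 genes were called in the 6 acute comparisons, and the members called stayed 1 for ENZA and 0 in the rest. Whether a set is a shared batch is not stated. Chronic counts of members include Ccl2 where it passed the filter. Counts of Ccl2, and of Cxcl10 in chronic CORT mice, were low.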
